A study of Mus musculus with 2 samples.

Results

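Mature migratory dendritic cells of the mouse colonic lamina propria, the connective tissue under the gut epithelium, were described here from their own RNA. They were chosen by raw counts of unique molecular identifiers (UMIs, each standing for 1 captured RNA molecule): at least 3 UMIs of Fscn1, 1 of Ccr7 and 10 of H2-Ab1, fewer than 10 of C1qa, C1qb and C1qc together, and none of Cd3d, Cd3e, Cd3g or Ms4a1. The rule was met by 100 of 8500 cells that passed the quality limits (at least 200 genes and at most 20% mitochondrial UMIs). Of these, 30 of 2610 cells came from the library labelled wild type, a share of 1.15% (exact binomial 95% interval 0.777% to 1.64%), and 70 of 5890 from the library labelled Lncly6c-deficient, a share of 1.19% (0.928% to 1.5%). The intervals, here and below, cover counting error only. Because the cells were picked by measured values, the height of Fscn1, Ccr7 and H2-Ab1 in them is a property of the rule.

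The study profiled single cells of the colon from male C57BL/6 mice aged 6 to 8 weeks and kept specific-pathogen-free, with 10x 3' chemistry, 1 library per genotype. Lncly6c is a long non-coding RNA, listed as 1700016P04Rik, and the deletion was made in C57BL/6J zygotes by Cas9 with a guide on each side of exons 1 and 2. The labels do not say how many animals went into either library. With 1 library per group no difference between the groups could be tested: intervals compare these libraries, not the genotypes. The 1700016P04Rik gene (GRCm38 chr6:13413337-13415996, a long intergenic non-coding RNA) had 0 UMIs in both whole libraries, so it does not check the labels, and the genotype words in the deposited names run opposite to the sample labels. Groups follow the labels throughout, and every direction between the libraries would be exchanged under the other reading.

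Conventional dendritic cells take up antigen in tissue and, on maturation, stop sampling and move through lymph to the draining node. The receptor CCR7 guides that move toward the chemokines CCL19 and CCL21, and fascin, the product of Fscn1, bundles actin into the long protrusions of mature cells. The alternative NF-kB pathway, which acts through RelB, is part of this maturation. Mature cells display peptide to T cells with costimulatory ligands, and also carry a set of genes that restrain T cells.

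The chosen cells held 496828 UMIs in the wild-type-labelled library and 945527 in the deficient-labelled one. A median cell had 16439 and 13306 UMIs, with ranges of 3805 to 34212 and 3654 to 36553. The median mitochondrial share was 3.80% and 3.36%. A count of 3 UMIs over all cells, taken as the floor for a gene at 0, is 6.04 and 3.17 CPM (counts scaled to 1000000 UMIs per population). The libraries shared 7 cell barcodes, and none of these belonged to a chosen cell. As a share of all conventional dendritic cells gated by UMIs (these cells plus the gates described below), the cells made up 30 of 498, or 6.02% (4.10% to 8.49%), and 70 of 1099, or 6.37% (5.00% to 7.98%).

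The rule's edge can be described but not tested. At exactly 3 Fscn1 UMIs there were 3 and 6 chosen cells, and at 2 and 1 UMIs, outside the rule, 6 and 12, then 17 and 66. Ccl22, which the rule did not use, stood at 5269 CPM in the wild-type-labelled cells with 3 Fscn1 UMIs and at 228 CPM in those with 2. In the deficient-labelled library the same steps were 1327 and 763.6 CPM. At 4 Fscn1 UMIs, inside the rule, Ccl22 was at 0 CPM in 2 wild-type-labelled cells and 758 CPM in 6 deficient-labelled ones. Relb, also outside the rule, was at 214 CPM at 3 Fscn1 UMIs and 114 CPM at 2 in the wild-type-labelled library. In the deficient-labelled library it was at 205 and 235 CPM. Neither gene thus rose steadily across the edge in both libraries. The wild-type-labelled value at 3 Fscn1 UMIs rests on 3 cells, with 284 of 320 Ccl22 UMIs in 1 of them. T-cell genes had 0 and 3.17 CPM (Cd3d, Cd3e and Cd3g at 0 by the rule) and B-cell genes 0 and 2.12 CPM. Neutrophil genes had 24.2 and 14.8 CPM, with Cxcr2 at 0, and macrophage genes 72.5 and 48.7 CPM. Monocyte genes, mostly Plac8, had 296 and 627 CPM against 361 and 306 CPM in the other dendritic cells. Epithelial genes had 72.5 and 58.2 CPM against 50.8 and 44.1 CPM there, and plasmacytoid dendritic cell genes 209 and 166 CPM against 143 and 138 CPM. Their part in the results below was not tested.

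Of the 4 genes named as marks of these cells, Ccl22 and Relb were not part of the rule. Both were above their levels in the other dendritic cells of the same library, Ccl22 by far more than Relb, and did not go against the label. The comparison cells were 3 gates that lack Fscn1: cDC1, which carry Xcr1, Cd209a-bearing cells, and Plet1-bearing cells. They numbered 468 and 1029 in all, with median depths of 15037.5 and 12975 UMIs. The Cd209a gate made up 391 and 774 of them, the cDC1 gate 66 and 206 and the Plet1 gate 11 and 49. Levels summed over the other dendritic cells are thus mostly those of the Cd209a gate. Genes of the same cells that were sorted by the rule give no test, and each value is a description.

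Ccl22 (chr8:94745590-94751699, plus strand), a chemokine that draws CCR4-bearing T cells, ran per chosen cell from 0 through a median of 66.5 to 434 UMIs in the wild-type-labelled library. In the deficient-labelled library it ran from 0 through 15.5 to 509 UMIs. Its summed level was 6858 and 3868 CPM in the mature cells against 151 and 370 CPM in the other dendritic cells, or 45.3-fold and 10.5-fold. The mature cells thus stood far above the rest, with 4 and 12 cells at 0. They carried 45.2% of all Ccl22 UMIs of the wild-type-labelled library and 20.5% of those of the other. A Ccl22 UMI was found in 86.7% and 82.9% of the mature cells, and in 86.7% and 67.1% after thinning every cell to 2000 UMIs. In the wild-type-labelled library, 18.2% of thinned cDC1-gate cells, 19.5% of Cd209a-gate cells and 36.4% of the 11 Plet1-gate cells had a Ccl22 UMI. Neutrophils, which should lack Ccl22, had it in 0.448% and 8.14% of thinned cells. Their median before thinning was 3048.5 and 2326.5 UMIs, and 19 and 30 shallower ones were left out.

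Relb (chr7:19606217-19629438, minus strand) ran from 0 through 5 to 15 UMIs per cell and from 0 through 4 to 14. Its level was 322 and 324 CPM, against 64.5 and 116 CPM in the other dendritic cells, 5.00-fold and 2.78-fold. The libraries agree within sampling noise for Relb in the mature cells (log2 ratio deficient to wild type 0.01, -0.27 to 0.29). The Plet1 gate came closest, with 178 and 179 CPM. A Relb UMI was in 96.7% and 92.9% of the mature cells, and in 46.7% and 54.3% after thinning. Thinned neutrophils also had one, in 18.4% and 11.6% of cells. In the wild-type-labelled library, 6.06% of thinned cDC1-gate cells, 13.1% of Cd209a-gate cells and 27.3% of the 11 Plet1-gate cells had one.

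Ccr7 (chr11:99144196-99155077, minus strand) ran from 4 through 46 to 105 UMIs and from 1 through 37 to 86. The rule asked for 1 Ccr7 UMI, yet no cell that met the other criteria had 0 and only 0 and 2 cells had exactly 1. Ccr7 was not confined to the mature cells: the Plet1 gate had 1055 and 1694 CPM and the Cd209a gate 534 and 811 CPM, beside 2975 and 2867 CPM here. The mature cells held 15.1% and 8.68% of the libraries' Ccr7 UMIs. Fscn1 (chr5:142960343-142973185, plus strand) ran from 3 through 23 to 99 UMIs and from 3 through 12 to 90, and 73.1% and 63.2% of all its UMIs lay in these cells. Neutrophils had 13.1 and 43.4 CPM of Ccl22, which the heat map of levels by population shows beside the other gates.

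**Figure D1:**
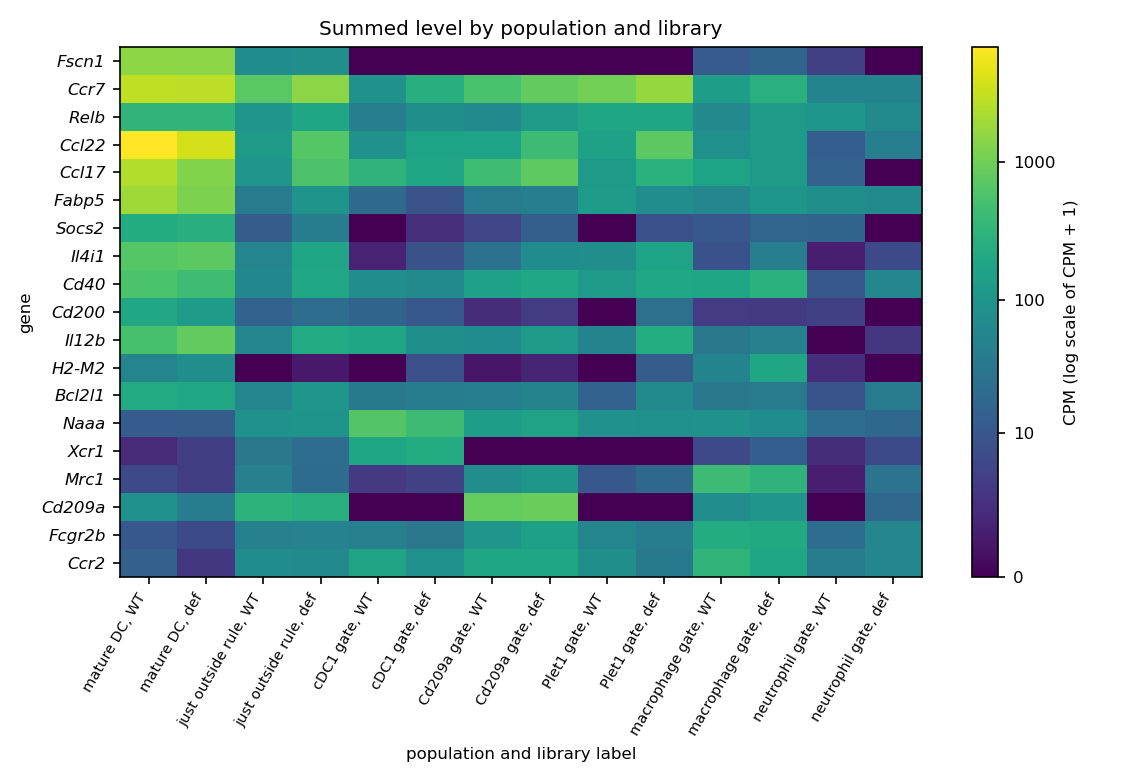
Heat map of summed levels (colour, CPM on a log scale of CPM + 1) of genes (rows) in the mature cells, the cells just outside the rule (1 or 2 Fscn1 UMIs) and the other gates (columns), with the wild-type-labelled (WT) and deficient-labelled (def) library side by side. Xcr1, Cd209a and Fscn1 are 0 in some gates by construction. Ccl22 lies at 6858 and 3868 CPM in the mature cells and at 730 CPM or lower in the cDC1, Cd209a and Plet1 gates, while Ccr7 in the Plet1 gate reaches 1694 CPM.

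Among 22 measured genes of the NF-kB pathway list, 6 were past 1.5-fold higher in the mature cells in both libraries and 0 past 1.5-fold lower. Over all 4644 genes measured, 11.1% were past 1.5-fold higher in both libraries and 15.4% lower. The list's median log2 ratio was 0.49 and 0.37, against -0.20 and -0.07 over all genes. Birc2, a ubiquitin ligase that controls the kinase NIK, stood at 372 and 293 CPM against 65.5 and 65.9 CPM in the other dendritic cells. Nfkb2, which encodes the p100 partner of RelB, was at 165 and 166 CPM against 76.6 and 95 CPM. Traf3, the adaptor that holds NIK low, was at 52.3 and 124 CPM against 26.7 and 37.9 CPM. The subunits of the classical pathway differed less: Rela had log2 ratios of -0.03 and -0.08, Nfkb1 -0.13 and 0.01, and Rel 0.33 and 0.46.

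Promoters of this list are shown because NF-kB genes often carry sites for NF-kB itself. The window was 250 bases before the start in RefSeq's GRCm38.p6 table, searched on both strands for the kappaB consensus, with no other motif searched. The consensus was found for 9 of the 20 NF-kB genes with an entry, or 45.0%: Cyld, Nfkb2, Nfkbia, Nfkbie, Rel, Tnfaip3, Tnip1, Tnip3 and Traf3. It was found for 1204 of all 27025 genes with an entry (4.46%). Of the genes past 4-fold higher in the mature cells, 78 had an entry and 6 held the consensus (7.69%), against 230 of 3699 measured genes (6.22%). The NF-kB list's share stood well above that of all genes. Since such genes often carry these sites, that share is not independent evidence and says nothing of the mature cells. The share among the genes highest in mature cells stood near that of the measured genes. A match is a description of letters and not a site, and the absence of one says nothing of the factor. The stretches below are written along the gene's own strand, with the match in capitals.
Nfkb2, chr19:46304678-46304727, plus strand: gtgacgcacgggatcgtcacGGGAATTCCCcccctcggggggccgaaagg
Nfkbia, chr12:55492648-55492696, minus strand: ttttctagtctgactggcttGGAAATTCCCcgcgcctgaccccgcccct
Rel, chr11:23771032-23771081, minus strand: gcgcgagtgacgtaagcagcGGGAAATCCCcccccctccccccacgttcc
Tnfrsf9, chr4:150927937-150927986, plus strand: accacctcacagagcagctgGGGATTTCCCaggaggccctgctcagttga
H2-M2, chr17:37483705-37483754, minus strand: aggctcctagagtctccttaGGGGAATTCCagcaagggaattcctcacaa
The first 3 belong to the pathway itself, a precursor of an NF-kB subunit, the inhibitor IkB-alpha and c-Rel. The last 2 belong to genes past 4-fold higher in the mature cells. Tnfrsf9, the costimulatory receptor 4-1BB, stood at 66.4 and 50.8 CPM against 1.18 and 7.07 CPM. H2-M2, a non-classical class I molecule, stood at 54.3 and 77.2 CPM against 0.526 and 3.71 CPM, but 81.5% of its wild-type-labelled UMIs lay in 1 cell and only 5 and 13 cells had any.

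Chemokine ligands separated the mature cells from the others in part. Of 13 measured, 3 (Ccl22, Ccl17 and Ccl5) were past 1.5-fold higher in both libraries and 1, Ccl6, was past 1.5-fold lower. Ccl17, the other CCR4 ligand, ran from 0 through 19 to 279 UMIs per cell and from 0 through 1 to 240, with 4 and 32 cells at 0. Its level was 2496 and 1307 CPM, against 404 and 592 CPM in the other dendritic cells, 6.17-fold and 2.21-fold. Ccl5, a chemokine that draws T cells, was at 2419 and 652 CPM against 191 and 139 CPM, 12.6-fold and 4.70-fold, and 10 and 24 cells had none. Cxcl16 had smaller log2 ratios, 0.71 and 0.45. In the wild-type-labelled library 25 cells and in the other 35 cells held both Ccl17 and Ccl22.

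Chemoattractant receptors lay on both sides. Without Ccr7, which the rule used, 1 of 6 measured was past 1.5-fold higher, Gpr183, and 3 were lower, Ccr1 and Ccr2 among them. Gpr183, the oxysterol receptor that positions dendritic cells in lymphoid tissue, was at 443 and 474 CPM against 200 and 168 CPM. Ccr2, which brings monocytes and pre-dendritic cells into tissue, was at 14.1 and 3.17 CPM against 182 and 149 CPM. Cxcr4, the CXCL12 receptor, had log2 ratios of -0.10 and -0.11, which lie within counting error.

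Of 26 measured genes of migration and the cytoskeleton, 12 were past 1.5-fold higher in both libraries, 7 of them past 4-fold, and 3 lower. Fscn1, which the rule used, is counted there, and without it 11 of 25 were past 1.5-fold higher and 6 past 4-fold. The shares over all genes past 4-fold were 2.22% higher and 1.55% lower. Cacnb3, a subunit of voltage-gated calcium channels, was at 334 and 228 CPM against 0.789 and 2.66 CPM, in 25 of 30 and 42 of 70 mature cells. Anxa3, a calcium-dependent membrane-binding protein, was at 300 and 328 CPM against 8.55 and 12.4 CPM. Arhgef40, a guanine nucleotide exchange factor, had log2 ratios of 3.10 (2.58 to 3.60) and 2.75 (2.37 to 3.12), and Cdc42ep3, a Cdc42 effector, 3.05 and 2.87. The actin-binding genes Marcksl1 and Swap70 had log2 ratios of 1.89 and 0.96, and of 1.76 and 1.25. On the other side, the intermediate filament gene Vim had log2 ratios of -0.96 and -1.33, Lgals3 of -1.73 and -1.58, and Ezr, which links membrane to actin, of -0.69 and -1.17.

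Costimulation was uneven. Of 14 measured ligands 6 were past 1.5-fold higher in both libraries and 2 lower. Cd40, the receptor for T-cell help, was at 562 and 442 CPM against 139 and 159 CPM, 4.03-fold and 2.78-fold. Cd200, an inhibitory ligand for myeloid cells, was at 199 and 129 CPM against 5.00 and 6.44 CPM, in 21 and 42 cells. Cd70 and Tnfsf4 (OX40L), which feed T-cell survival signals, were found in few cells, 9 and 12, and 7 and 24. Their log2 ratios were 5.61 and 3.87, and 2.73 and 3.25. Cd274 (PD-L1) had ratios of 1.62 and 1.17. Of the classical marks, Cd83 was at 860 and 793 CPM against 973 and 1002 CPM. Cd86 had log2 ratios of 0.33 and 0.98, past 1.5-fold in the deficient-labelled library only.

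The list of maturation and regulatory genes was chosen with cells of this kind in view, so its count is not independent evidence. Of 30 measured, 23 were past 1.5-fold higher in both libraries, 15 of them past 4-fold, and 1, Ifi205, lower. The median log2 ratio was 2.99 and 2.43. Il4i1, an amino acid oxidase that restrains T cells, ran to 44 and 63 UMIs per cell with medians of 7.5 and 6. Its level was 672 and 744 CPM against 23 and 59.97 CPM, 29.2-fold and 12.4-fold, and only 3 and 5 cells had none. Apol7c, an apolipoprotein L family gene linked to cross-presentation, was at 2385 and 1190 CPM against 48.0 and 87.5 CPM. It was in fewer cells, 21 of 30 and 35 of 70, and the mature cells held 48.4% and 24.9% of its UMIs. Socs2, a brake on cytokine signalling, was at 227 and 251 CPM against 4.21 and 10.3 CPM. Serpinb9, an inhibitor of granzyme B, had log2 ratios of 2.22 and 1.74, and Stat4 1.90 and 1.72. The transcription factors Irf4 (-0.22 and 0.16) and Etv3 (0.04 and -0.08) did not pass 1.5-fold either way.

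By a fixed ranking on the smaller of both libraries' ratios, the genes highest in the mature cells after Fscn1 were Nudt17, Tcf7, Cacnb3, Mreg, Fabp5, Snn, Lad1, Anxa3, Adcy6, Socs2, Car2, Eno3, Cd63 and H2-M2. Nudt17, a Nudix hydrolase, was at 195 and 118 CPM against 0.526 and 0.630 CPM, and 67.4% and 56.3% of all its UMIs lay in these cells. Fabp5, which carries fatty acids and retinoic acid, was at 1962 and 1195 CPM against 37.1 and 36.5 CPM, 52.9-fold and 32.8-fold, in 29 and 57 cells. Cd63, a tetraspanin of late endosomes, was at 839 and 756 CPM against 22.9 and 35.1 CPM. Tcf7, the T-cell factor TCF-1, had 25 and 75 UMIs in 9 and 17 mature cells that had no Cd3d, Cd3e or Cd3g UMI by the rule. Car2 (carbonic anhydrase) came from 6 and 16 cells only.

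**Figure D2:**
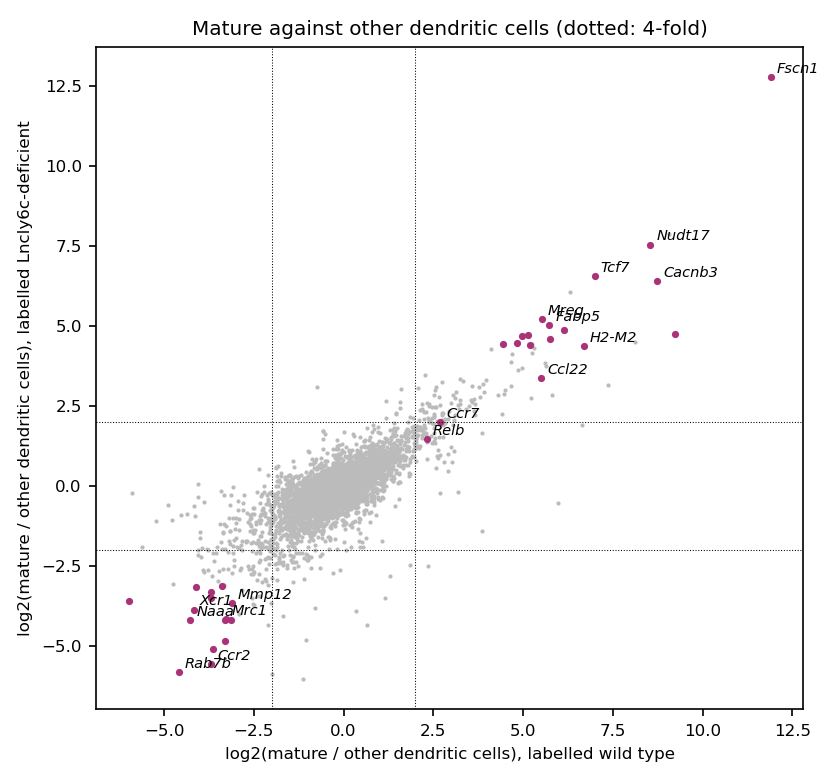
Log2 ratio of each measured gene's level in the mature cells over that in the other dendritic cells, with the wild-type-labelled library on the horizontal axis and the deficient-labelled on the vertical; each point is a gene, dotted lines mark 4-fold, and ranked genes and markers are coloured. Of 4644 genes, 103 lie past 4-fold higher in both libraries, Fscn1 and Ccr7 of the rule among them, and 72 past 4-fold lower, with Nudt17, Cacnb3 and Fabp5 far to the upper right and Rab7b and Ccr2 to the lower left.

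Soluble signals and metabolic enzymes showed a few high genes. Of 10 measured cytokines and partners, 4 were past 1.5-fold higher in both libraries and 2 lower. Il12b, the p40 chain of IL-12 and IL-23, ran from 0 through 0.5 to 69 UMIs per cell and from 0 through 1 to 80, and 15 and 33 cells had none. Its level was 529 and 820 CPM against 92.1 and 112 CPM, 5.75-fold and 7.30-fold. Thus about as many cells lacked Il12b as carried it. Ebi3, the partner chain of IL-27 and IL-35, was at 348 and 233 CPM against 80.1 and 96.9 CPM, and Il1rn, the IL-1 receptor antagonist, at 342 and 531 CPM against 82.4 and 155 CPM. Tgfb1 was lower, at log2 ratios of -1.01 and -0.78.

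Among 8 measured genes for retinoic acid, TGF-beta and tryptophan handling, Aldh1a2 and Il4i1 were past 1.5-fold higher and 3 were lower. Aldh1a2, which makes the retinoic acid that imprints gut homing on T cells, ran from 0 through 1.5 to 27 UMIs per cell and from 0 through 0 to 14. It was absent from 13 and 48 cells. Its level was 260 and 108 CPM against 16.6 and 10.7 CPM, 15.7-fold and 10.1-fold. After thinning, 23.3% and 18.6% of mature cells had an Aldh1a2 UMI, and 0 of 223 and 0 of 86 neutrophils, which allows up to 1.35% and 3.49% with 3 cells as the limit for a count of 0. Ahr, the receptor for tryptophan-derived ligands, was lower, at -0.97 and -0.60.

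Antigen presentation genes lay on both sides. Of 12 measured class II genes besides the one the rule used, 2 were past 1.5-fold higher and 2 lower. H2-DMa and H2-DMb1, whose product loads peptide on class II, had log2 ratios of -1.35 and -1.59, and of -2.06 and -2.24. H2-Aa and Cd74, the class II chain and its invariant chain, had smaller ones, -0.44 and -0.28, and -0.39 and -0.41. H2-Eb2 was the exception on the high side, at 127 and 85.7 CPM against 4.87 and 4.90 CPM. Of 16 class I genes, 4 were past 1.5-fold higher and 0 lower. B2m, the class I light chain, had log2 ratios of 0.94 and 0.80, and Nlrc5, the class I transactivator, 3.42 (2.87 to 3.95) and 2.41 (1.93 to 2.86). H2-Q6 and H2-Q7 are near copies, and how the authors' counting shared reads between them is uncertain.

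Genes of uptake and sensing were low. Of 14 measured, 0 were past 1.5-fold higher in both libraries and 12 were lower, 9 of them past 4-fold. The list's median log2 ratio was -2.40 and -2.35. Clec10a and Mgl2, galactose-binding lectins, had log2 ratios of -2.43 and -3.42, and of -2.02 and -3.63. Mrc1, the mannose receptor, had 3 and 4 UMIs in all mature cells (ratios -3.30, -5.58 to -1.74, and -4.16, -6.04 to -2.80). Rab7b, a GTPase of late endosomes, had 2 and 2 UMIs (-4.59, -7.64 to -2.73, and -5.81, -8.86 to -3.96), and Fcgr2b, the inhibitory Fc receptor, 5 and 6 UMIs. Anxa1, an anti-inflammatory annexin, was at 12.1 and 26.4 CPM against 208 and 234 CPM. The rule's limit on C1q UMIs and the gates for Xcr1, Cd209a and Plet1 enter this contrast for genes that go with those markers.

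The origin of single cells from the conventional subsets was not assigned. Of 9 measured cDC1 genes 6 were past 1.5-fold lower and 0 higher, and of 13 cDC2 genes 5 lower and 2 higher. Xcr1 and Cd209a are among the lower ones, and since they defined the comparison gates their place there is a property of the gates. Naaa, a lysosomal amidase high in cDC1, was at 12.1 and 12.7 CPM against 234 and 229 CPM. Itgam (CD11b) was at 16.1 and 15.9 CPM against 162 and 135 CPM. Counting cells with any UMI of the genes used to split the subsets, 1 and 8 cells had a cDC1 gene (Xcr1, Clec9a or Cadm1), 24 and 52 (80.0% and 74.3%) a cDC2 gene (Cd209a, Sirpa, Mgl2 or Clec10a), 0 and 6 of these both, and 5 and 16 neither. Cd209a was in only 4 and 13 cells. Sirpa was in 21 of the 30 wild-type-labelled cells, but also in 57.9% of neutrophils and 88.0% of macrophages of that library. The cDC2 count is therefore not specific to cDC2. Irf8, which cDC1 need, was in 15 and 44 cells, and Irf4, which cDC2 need, in 15 and 42. The Plet1 mark of colonic cDC2 was in 0 and 18 cells.

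Of 17 measured survival genes, 9 were past 1.5-fold higher in both libraries and 0 lower. Bcl2l1 (BCL-XL) had log2 ratios of 2.47 and 1.97, while Bcl2l11 (BIM) stood at -0.15 and 0.04. Bcl2a1a, Bcl2a1b and Bcl2a1d are near copies whose reads may be split, and all 3 were higher by at least 0.64. Of 13 glycolysis genes 7 were lower and 0 higher: Ldha had -1.66 and -0.99 and Gapdh -0.07 and -0.07. Of 18 immediate-early and dissociation genes 5 were lower and 0 higher, with Atf3 at -1.21 and -1.33. Among 30 measured transcription factors 4 were higher (Relb, Stat4, Stat5a and Nr4a3) and 7 lower. Nr4a3, an orphan nuclear receptor of dendritic-cell migration, was at 1912 and 1701 CPM against 893 and 768 CPM. Of 9 proliferation genes 1, Mki67, was higher and 3 lower.

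The mature cells were not uniform. Split at 10 Fscn1 UMIs, a division made after seeing the data, 19 and 43 cells lay at or above it and 11 and 27 between 3 and 9. Depth was similar, with medians of 16686 and 13254 UMIs above and 14040 and 13840 below. Near the division, 3 and 4 cells had 8 or 9 Fscn1 UMIs, and 0 and 4 had 10 or 11. Of 2358 measured genes, 11 (0.466%) were past 4-fold higher above the division in both libraries and 8 (0.339%) lower. The 11 include Fscn1, which made the division, and Hopx and Cxcl1, of whose wild-type-labelled UMIs 89.6% and 53.8% lay in 1 cell. Cells high in Fscn1 were higher in Apol7c, at 3414 against 236 CPM in the wild-type-labelled library and 1957 against 60.1 CPM in the other. Aldh1a2 was at 372 against 24.9 CPM and 176 against 7.84 CPM. Over all mature cells, 14 and 19 held both genes, 7 and 16 Apol7c alone and 3 and 3 Aldh1a2 alone.

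Ccl22 followed Fscn1 less steeply, at 8639 against 3139 CPM and 5835 against 972 CPM, and Ccl5 had log2 ratios of 2.45 and 3.84. In the wild-type-labelled cells low in Fscn1, 284 of the 505 Ccl22 UMIs lay in 1 cell. Every wild-type-labelled cell above the division, 19 of 19, and 42 of 43 deficient-labelled ones had a Ccl22 UMI, against 7 of 11 and 16 of 27 below it. Ccr7 and Relb differed little along this axis, with log2 ratios of 0.48 and 0.41, and of 0.38 and 0.40. Cells low in Fscn1 were higher in Cd209a, at 261 against 5.95 CPM and 81.0 against 10.7 CPM, and in Plac8, Ccr1, Cfp and Ly6e, all past 3-fold in both libraries. The Cd209a level rests on few cells, with a UMI in 3 of 11 and 9 of 27 below the division and in 1 of 19 and 4 of 43 above it. In the wild-type-labelled cells Ccr1 had only 7 UMIs below it and 3 above (interval of the log2 ratio -4.87 to -0.15). Cfp had 19 and 8 UMIs there, and Plac8 was found in 5 of 11 and 3 of 19 cells. The split by Aldh1a2 gave a like picture: cells with an Aldh1a2 UMI had Ccl22 at 8138 and 7754 CPM and those without at 4621 and 1999 CPM.

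**Figure D3:**
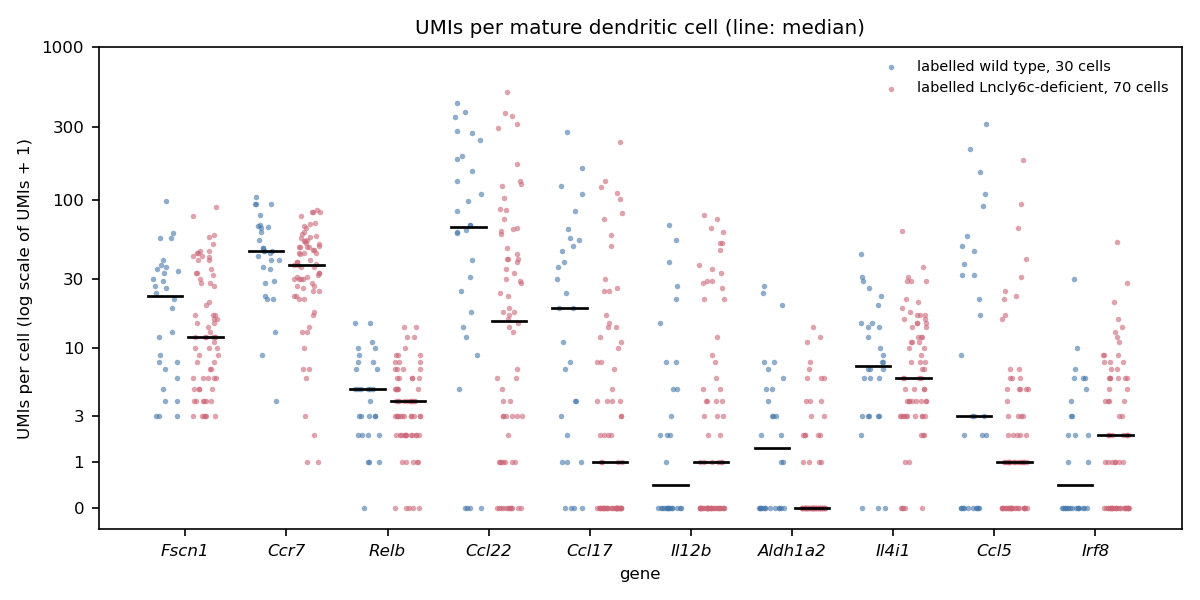
UMIs of marker and program genes per mature cell (log scale of UMIs + 1), with 1 point per cell and a bar at the median, for the 30 wild-type-labelled and 70 deficient-labelled cells. Ccl22 spans 0 to 434 and 0 to 509 UMIs with medians of 66.5 and 15.5, and the 2 libraries overlap throughout.

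**Figure D4:**
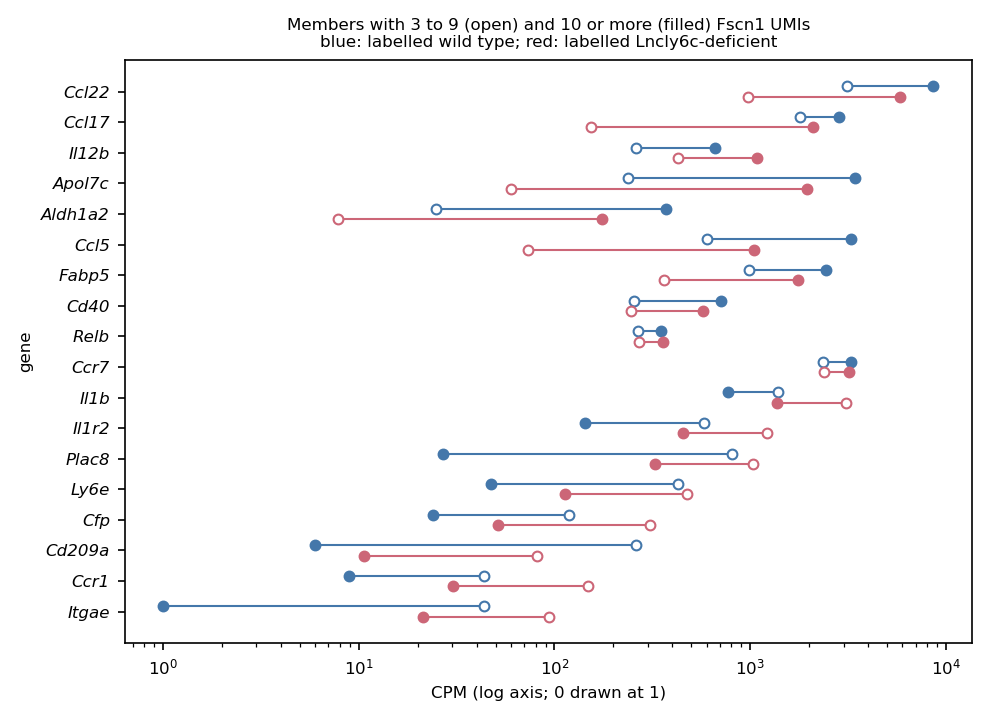
Levels (CPM, log axis) of genes in mature cells with at least 10 Fscn1 UMIs and with 3 to 9, for each library (filled circles for the higher Fscn1 class, open for the lower, a line joining both; a level of 0 is drawn at 1). Apol7c and Aldh1a2 are far higher in the cells high in Fscn1, Cd209a, found in few cells, is higher in those low in Fscn1, and Ccr7 and Relb lie close together.

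Between the libraries, the share of the mature cells and their Relb level were close, while most chemokines, Ccl22 among them, and most genes that interferon induces were past 1.5-fold lower on the deficient-labelled side. Of 3133 genes that had 50 or more UMIs in the mature cells of both libraries together, 789 (25.2%) differed past 1.5-fold, 492 (15.7%) higher and 297 (9.48%) lower in the deficient-labelled cells. With size factors by the median of ratios the split was 382 higher and 387 lower, and the median log2 ratio of all genes was 0.07 under CPM. Ccr7 had a log2 ratio of -0.05 (-0.15 to 0.04). The NF-kB list had 5 of 20 genes higher and 1 lower, and Traf3 was among the higher at 1.24 (0.62 to 1.91).

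Of 11 measured chemokine ligands, 10 were past 1.5-fold lower in the deficient-labelled cells and 0 higher, with a median log2 ratio of -1.57. Ccl4, an inflammatory chemokine, ran from 0 through 0.5 to 92 UMIs per cell in the wild-type-labelled library and from 0 through 0 to 8 in the other, in 15 of 30 and 23 of 70 cells. Its level was 809 against 45.5 CPM (log2 ratio -4.15, -4.64 to -3.70). The same gene was also lower in the other dendritic cells, at 572 against 152 CPM, so the difference was not limited to the mature cells. Ccl5 had a ratio of -1.89 (-2.03 to -1.75), Ccl22 of -0.83 (-0.89 to -0.76) and Ccl17 of -0.93 (-1.05 to -0.82). In the cells high in Fscn1 the Ccl22 ratio was -0.57 and the Ccl17 ratio -0.44, neither past 1.5-fold, and in those low in Fscn1 they were -1.69 and -3.54. Of the 11 wild-type-labelled cells low in Fscn1, 1 held 284 of their 505 Ccl22 UMIs and 123 of their 288 Ccl17 UMIs. The Ccl22 ratio of -1.69 thus rests largely on that cell. Leaving out the deepest cells, above the 90th percentile of UMIs, also put Ccl22 within 1.5-fold, at -0.54. In the other dendritic cells both went the other way, with Ccl22 at 151 against 370 CPM and Ccl17 at 404 against 592 CPM.

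Of 9 measured interferon-stimulated genes, 7 were past 1.5-fold lower and 0 higher, with a median log2 ratio of -2.53. Isg15, a ubiquitin-like protein, ran from 0 through 8 to 44 UMIs and from 0 through 0 to 17, in 25 of 30 and 31 of 70 cells. Its level was 886 against 149 CPM (-2.57, -2.85 to -2.29), and in the other dendritic cells 178 against 81.7 CPM. Ifit1, a sensor of viral RNA, had 121 UMIs in 11 wild-type-labelled cells, 38.8% of them in 1 cell, and 2 UMIs in 2 deficient-labelled cells (-6.85, -9.91 to -4.96). Rsad2 (viperin) had 103 and 34 UMIs in 14 and 12 cells. Cxcl10, an interferon-induced chemokine, had 189 and 35 UMIs, 40.2% and 48.6% of them in 1 cell each. Neutrophils differed little in Isg15, at 454 and 500 CPM, and macrophages had 492 and 258 CPM.

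Higher in the deficient-labelled cells were Il22ra2, Lyz2, Stmn1, Kit, Mpp7, Ifitm1, Ass1, Sipa1l1, Ctsc and Man2b1, the 10 that led by ratio. Il22ra2, the soluble decoy receptor that binds IL-22, had 0 UMIs in the 30 wild-type-labelled cells, which allows up to 10.0% of cells with a UMI by the same limit of 3 cells. It had 229 UMIs in 13 of 70 deficient-labelled cells, 18.6% (10.3% to 29.7%), and was at least 40.1-fold higher with the wild-type-labelled library at the floor of 3 UMIs. After thinning, 14.3% of the deficient-labelled mature cells had an Il22ra2 UMI, against 0.897% and 1.16% of neutrophils. The Plet1 gate carried the gene in both libraries, at 377 and 529 CPM, as did the macrophage gate at 43.9 and 253 CPM. Of the 13 cells, 12 also had Lyz2 and 7 also had Plet1, beside 53 and 18 of all 70 deficient-labelled cells. In 1 cell lay 61 of the 229 Il22ra2 UMIs. Plet1 had 0 and 97 UMIs, at least 17-fold higher.

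Lyz2, the lysozyme of myeloid cells, ran from 0 through 0 to 12 UMIs in the wild-type-labelled cells and from 0 through 1.5 to 263 in the others, with 27.9% of the latter's UMIs in 1 cell. Its level was 64.4 against 996 CPM (3.95, 3.44 to 4.51). Macrophages carried it at 6499 and 10607 CPM and neutrophils at 2139 and 2926 CPM, and the other dendritic cells at 649 and 1188 CPM. Kit, the stem cell factor receptor, had 10 UMIs in 7 of 30 cells and 98 in 39 of 70 (2.36, 1.42 to 3.47), with at most 3 and 7 in a cell. Mpp7, a scaffold protein of cell polarity, was as evenly spread, in 9 and 48 cells. Il1b, the inflammatory cytokine, had a median of 1.5 and 10 UMIs per cell (1.09, 0.94 to 1.23), and Cd86 3 and 6 (1.08, 0.79 to 1.37). Among the cells at or under their library's median share of other cell types' genes, Il1b was at -0.14 and Cd86 at 0.19, so both calls rested on the remaining cells. Monocyte genes, mostly Plac8, were the largest part of that share, at 296 and 627 CPM. Plac8 and Il1b were both lower in the cells high in Fscn1 (log2 ratios -4.91 and -1.66, and -0.85 and -1.16). This subset, here and below, therefore does not separate other cells' RNA from Fscn1 level. Within the cells high and low in Fscn1, the ratio between the libraries was 0.84 and 1.15 for Il1b. For Cd86 it was 0.66 and 1.65. All 4 values were past 1.5-fold, and the cause of the change in the subset was not tested. The part of other cells' RNA in the Lyz2 level was not tested.

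Some of the lowest ratios rested on single cells. Mptx1, a gut epithelial pentraxin, and Clca1, made by goblet cells, had 99.6% and 99.1% of their wild-type-labelled UMIs in 1 cell, which also held 23 Muc2 UMIs beside 26 of Fscn1 and 95 of Ccr7. Hopx had 89.6% and Cxcl1 53.8% in 1 cell. Without the top cell of each library Hopx turned from -2.30 to 0.39, and Clca1 kept 1 UMI in the wild-type-labelled cells and 0 in the others. The targets named in the study's title other than the deleted gene were modest: Nr4a1 was at 203 against 123 CPM (-0.73, -1.13 to -0.33), Cebpb at 60.4 against 43.4 CPM (-0.48, -1.19 to 0.25) and Ly6c2 at 8.05 against 10.6 CPM.

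**Figure D5:**
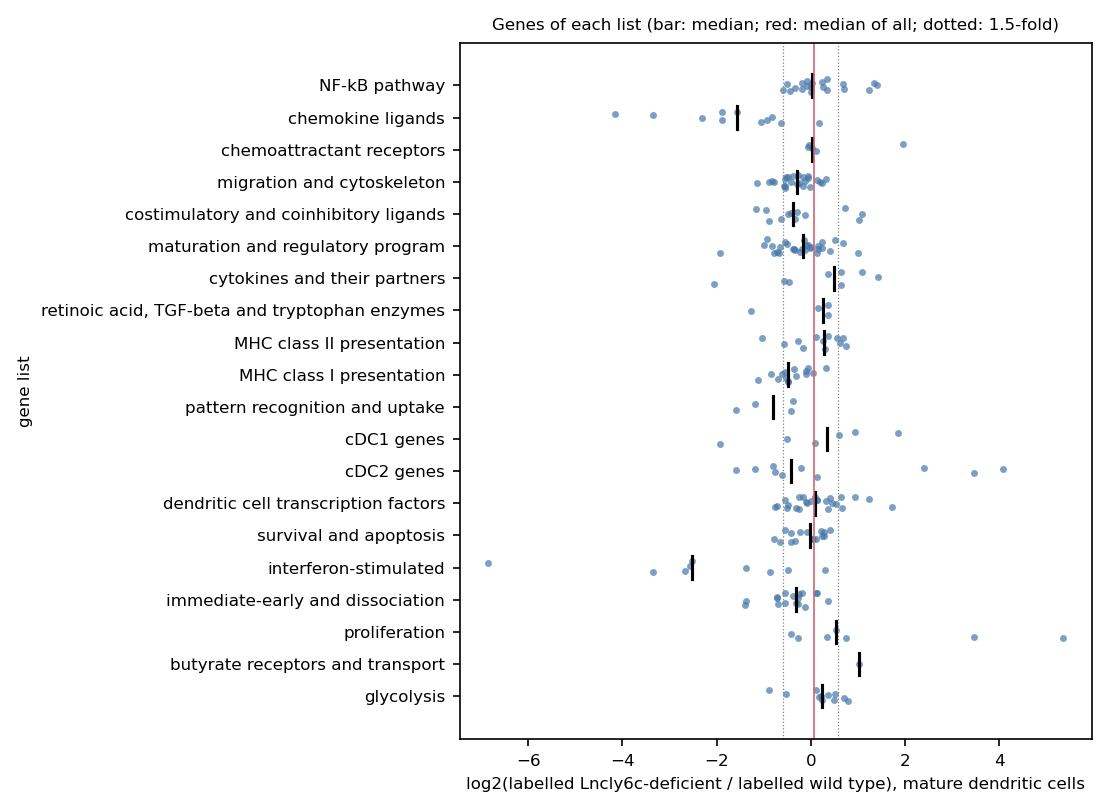
Log2 ratio of deficient-labelled over wild-type-labelled mature cells (horizontal axis) for the measured genes of each list (rows), 1 point per gene, with a black bar at the list's median, a red line at the median of all genes and dotted lines at 1.5-fold. The chemokine ligands (median -1.57) and interferon-stimulated genes (-2.53) lie to the lower side, and the NF-kB list (0.01) and all genes (0.07) near 0.

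The remaining lists had smaller median ratios between the libraries than the chemokine and interferon lists, but in some a like share of genes passed 1.5-fold. Of 10 cDC2 genes 3 were higher and 5 lower. Of 12 costimulatory and coinhibitory ligands 3 were higher and 4 lower, and of 6 cDC1 genes 3 higher and 1 lower. Of 30 maturation and regulatory genes 2 were higher and 8 lower, with Apol7c at -1.0 (-1.12 to -0.88) and Il4i1 at 0.15 (-0.04 to 0.34). Of 25 migration genes 0 were higher and 4 lower. Of 15 class I genes 0 were higher and 4 lower, and of 12 class II genes 3 higher and 1 lower. Of 8 cytokine genes 4 were higher, among them Il12b at 0.63 (0.43 to 0.84) but at -0.98 in the cells at or under the median share of other cell types' genes, and 1, Tnf, was lower at -2.05 (-2.64 to -1.49). Aldh1a2 had a ratio of -1.27 (-1.66 to -0.88), and -0.22 in those cells. Within the cells high and low in Fscn1, the Il12b ratio was 0.72 and 0.71. The Aldh1a2 ratio was -1.08 and -1.66 there, the latter from 4 wild-type-labelled and 3 deficient-labelled UMIs. Cells with an Il12b UMI had Ccl22 at 7553 and 5959 CPM and those without at 6006 and 1525 CPM. The 18 deficient-labelled cells with a Plet1 UMI had Ccl22 at 1021 CPM, against 5096 CPM in the 52 others.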

How the data were processed

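The values were UMI counts per gene and barcode, deposited by the authors without normalization and with no cell annotation used here, for 31053 genes in 1 library per group. Cell Ranger, STAR 2.5.1b and mm10 are named in the submitters' processing notes, and software version 3.0.2 is given per the file headers. How reads were assigned to overlapping, antisense or near-identical genes is not given in the sources used here.

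Cells with at least 200 genes and at most 20% mitochondrial UMIs were kept. No clustering and no doublet caller was used. Leaving out the deepest cells addressed only doublets of high depth. It could not remove a mixed cell of ordinary depth. The cell with most Mptx1 UMIs had 14818 UMIs, under its library's median of 16439, and was kept. The other dendritic cell gates (Xcr1 with Clec9a, Cd209a, and Plet1 with Itgae) had no Fscn1 UMI. UMIs were summed per library and population and given as CPM (counts scaled to 1000000) with exact Poisson 95% intervals, ratios with exact conditional binomial intervals, and shares with exact Clopper-Pearson intervals. These cover counting error only, and cells are not replicates. Zeros in ratios were set at 3 counts per library. Between the libraries, genes with at least 50 UMIs were measured and 1.5-fold counted. Against other dendritic cells, genes with a mean of at least 20 CPM were measured, and 4-fold or 1.5-fold the same way in both libraries counted. Cells were thinned to 2000 UMIs for shares.

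The cells, the 20 gene lists and the alternatives were chosen with earlier results of these data known. The text names the 4 markers, up to 4 leading members of each list and members needed to describe roles. It also names the 15 highest and 15 lowest genes against other dendritic cells, of which a part is described, the 10 highest and 10 lowest between the libraries and the genes in the series title. Genes of the splits by Fscn1 were chosen after their values were seen. The scripts were tested on simulated data. Software was matplotlib 3.10.9, pandas 2.3.3, scipy 1.17.1 and numpy 2.4.6 under Python 3.11.15. Alternatives were other Fscn1, mitochondrial, UMI and CPM limits, size factors, means over cells, single gates and subsets of the cells. Values of some genes that the rule names are not reported here.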

Additional observations from a re-analysis of the deposited data

Results flagged for a closer look

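For 3 genes the mature cells lay on opposite sides of the other dendritic cells in the 2 libraries, and the difference was not tested because each group is 1 library. Ifit1, an interferon-induced sensor of viral RNA, had a log2 ratio of mature to other dendritic cells of 2.34 in the wild-type-labelled library and -2.50 in the deficient-labelled one, the latter from 2 UMIs. Oasl1, also interferon-induced, had 0.90 and -0.88. Kit, the stem cell factor receptor, had -1.39 and 0.59.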

How the results depend on the processing

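No paired analysis was possible because each group holds 1 library, and for the same reason no replicate could be left out. Shares were 6.02% and 6.37% over the dendritic cells alone, and 0.917% in the deficient-labelled library with at least 6 Fscn1 UMIs. Genes past 1.5-fold higher in the deficient-labelled cells numbered 208 with at least 100 UMIs, 3004 with no filter, 217 in cells at or under the median share of other cell types' genes, 289 in cells with 10 or more Fscn1 UMIs and 269 in those with 3 to 9. Genes past 1.5-fold lower numbered 156, 3872, 162 and 185 under the first 4 of these. Genes past 4-fold higher in mature cells numbered 189 against the cDC1 gate alone, 62 against the Plet1 gate alone and 56 with a mean of at least 50 CPM. Genes past 4-fold lower numbered 122, 26 and 36 there, 121 with at least 6 Fscn1 UMIs and 140 in cells at or under the median share of other types' genes. Of the 103 genes higher, 42 were still past 4-fold against the Plet1 gate, and of the 72 lower, 14. Between the libraries, of the values of 41 named genes, 334 kept their side of 1.5-fold, 17 fell within it, 3 passed it and 1 moved. A turn of direction was counted only for genes past 1.5-fold at first, and 5 values turned. Clca1 (0.66, a sign set by the floor of 3 counts) and Hopx (0.39) turned without the top cell of each library. Il12b (-0.98), Il1b (-0.14) and Fabp5 (0.12) turned in cells at or under the median share of other types' genes. Against other dendritic cells, of the values of 33 genes, 94 kept their side, 4 fell within the threshold and Xcr1 turned (1.98) against the Cd209a gate, which has no Xcr1 by construction. The cause of the other changes was not tested. With 30 cells in 1 library, a gene in under 10.0% of its mature cells could go unseen, taking 3 cells as the limit for a count of 0.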

Other observations

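Proliferation genes in the deficient-labelled mature cells lay in few cells. Top2a, a topoisomerase of dividing cells, had 1 UMI in the wild-type-labelled cells and 78 in 14 deficient-labelled cells, 37.2% of them in 1 cell. Birc5 (survivin) had 1 and 20 UMIs, the latter in 6 cells with 55.0% in 1. Stmn1 had 6 UMIs in 5 cells and 125 in 19, with 38.4% in 1 cell. In the other dendritic cells the same genes were present at like levels in both libraries: Top2a at 119 and 94.3 CPM, Birc5 at 54.9 and 44.2 CPM and Stmn1 at 219 and 202 CPM. Mki67 was seen in 24 of 30 and 57 of 70 mature cells, at 541 and 403 CPM, above its level in the other dendritic cells (282 and 214 CPM), so it stood apart from Top2a and Birc5 in both libraries.

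Klf2, a transcription factor of quiescent and migrating lymphoid cells, had 49 UMIs in 11 wild-type-labelled mature cells and 308 in 45 deficient-labelled ones (log2 ratio 1.72, 1.29 to 2.19), while the other dendritic cells had it at 146 CPM in both libraries. Tmem176a and Tmem176b, neighbouring ion channel genes, were at 795 and 455 CPM and at 668 and 435 CPM in the mature cells, against 208 and 213 CPM and 250 and 247 CPM in the other dendritic cells.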
